A study of Solanum lycopersicum with 12 samples.

Results

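The genes described here are 248 of 34075 tomato genes whose transcripts were at a steady level in mock-treated leaflets at both harvests, stayed near that level after 5 h of feeding by larvae of the leafminer *Tuta absoluta*, and were lower after 24 h. They were chosen from the measured values themselves, as CPM (the count of a gene divided by the total of its library, times 1000000) averaged over the 3 libraries of each group. A member had a mean of at least 5 CPM in both control groups, a ratio of control 24 h to control 5 h between 0.67 and 1.5, a ratio of infested 5 h to control 5 h between 0.75 and about its inverse, and a ratio of infested 24 h to control 24 h of at most 0.6, with every infested 24 h library below every control 24 h library. Because all 4 group means entered this choice, the levels, ratios and calls of these genes at either time describe them and are not independent evidence of a response.

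Chewing by an insect larva sets off the jasmonate pathway in a leaf, with a rise of proteinase inhibitors and other defence transcripts, while many transcripts of growth and photosynthesis are known to decline. Leaf cells spend much of their transcription on chloroplast functions: light-harvesting proteins hold chlorophyll around the photosystems, the tetrapyrrole pathway makes the chlorophyll and the haem, and aminoacyl-tRNA synthetases load each tRNA with its amino acid for protein synthesis in the cytosol and the organelles. Many such genes also follow the time of day, so that a gene compared at a single harvest can differ between treated and control plants against a moving level. The choice of genes that were steady between control harvests leaves out those whose control level itself moved.

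The study placed larvae on the terminal leaflets of a true leaf of tomato (*Solanum lycopersicum*, cv. Better Bush), grown in nutrient film culture in a growth chamber, and handled control plants in the same way without larvae. There were 3 RNA-seq libraries in each of 4 groups of this cultivar, leaflets infested for 5 h (infested 5 h), their mock-treated counterparts (control 5 h), leaflets infested for 24 h (infested 24 h) and theirs (control 24 h), and the larvae were taken off before the leaflets were frozen. The study used as many plants as libraries in each treatment, but no source ties a library to a plant, so the spread between replicates may be in part technical. Library totals lay between 19655669 and 28209033 counts, and 3 counts corresponded to 0.106 to 0.153 CPM, a floor that covers counting error only.

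Leaf identity and feeding were both visible in the counts, by lists that are not independent of them. The study drew these lists from genes it called between infested and control leaflets in these same libraries. Their differences between infested and control therefore describe the libraries and are not independent evidence of feeding. Of the study's lists for photosynthesis, light harvesting and light reaction, only the first 26 genes each were at hand, 42 different genes in all. These 42 took 8.93% to 10.7% of the counts in infested 5 h and 10.3% to 11.5% in control 5 h. They took 1.55% to 2.17% in infested 24 h and 3.33% to 4.17% in control 24 h. The 12 genes listed under response to wounding, which are annotated as proteinase inhibitors, summed to 1378, 4037 and 3022 CPM in infested 5 h and 32856, 10571 and 30189 CPM in infested 24 h, against 30.5 to 103 CPM in the 6 control libraries. Within infested 24 h, replicate 2 had the lowest sum. The libraries of 24 h infested leaflets also needed the larger correction by the trimmed mean of M-values (TMM), with factors of 1.173, 1.245 and 1.041, against 1.019, 1.039 and 0.978 in control 24 h. As a result, the median log2 fold change (log2FC) over the 18200 genes tested at 24 h was 0.02 with TMM and 0.21 with library totals alone, and the split of genes called at 24 h was 2279 lower and 2139 higher with TMM, but 1303 lower and 3533 higher with totals alone.

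The rule narrowed the genome in steps. Of the 34075 genes, 11284 met the floor of 5 CPM, 8407 of these were within the control band, and 6741 were also within the 5 h band, and are called stable genes here. Among the stable genes, 262 had a 24 h ratio of at most 0.6, and 14 of them had overlapping libraries, which left 248 members, or 3.68% of the stable genes. In the other direction, 305 stable genes (4.52%) had a 24 h ratio of at least the inverse of 0.6 without overlap. The members' 24 h ratio ran from 0.221 to 0.5998 with a median of 0.539. A ratio of at most 0.5 was found for 74 members and of at most 0.4 for 10, while 109 members were above 0.55 and so near the limit.

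The number of members depended on the scaling and on single libraries. With CPM scaled by TMM in the same rule, 512 genes met it, of which 239 were among the 248. Without infested 24 h replicate 1 the rule took 144 genes, 141 of them among the 248, and without infested 24 h replicate 2 it took 413, which included 245 of the 248. Leaving out any other library gave 217 to 304 genes.

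The members were distinct from other stable genes in their level, a property that the rule touched by its floor and by its clause on overlap. Their control 24 h mean had a median of 190 CPM, against 22.1 CPM in the 4353 stable genes with a 24 h ratio between 0.75 and about its inverse, which serve as the comparison genes below. Of the members, 152 (61.3%) reached 100 CPM and 30 (12.1%) reached 1000 CPM in control 24 h, against 14.1% and 0.964% of all stable genes. Read the other way, members made up 22 of 3158 stable genes (0.697%) between 5 and 20 CPM and 74 of 2635 (2.81%) between 20 and 100 CPM. They made up 122 of 883 (13.8%) between 100 and 1000 CPM and 30 of 65 (46.2%) at 1000 CPM or more. The clause on overlap removed genes only below 100 CPM. Without it, the shares at or below 0.6 were 1.04%, 2.92%, 13.8% and 46.2%. The median 24 h ratio of the stable genes in these 4 classes of level was 1.198, 1.116, 0.861 and 0.612. No stable gene of 1000 CPM or more was higher at 24 h by the inverse of the limit.

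Part of this depended on 1 library. Without infested 24 h replicate 1, members made up 15 of 3158, 42 of 2635, 81 of 883 and 6 of 65 stable genes in the same classes, so that the share in the top class was 9.23% in place of 46.2%. The median 24 h ratio of the stable genes still declined over the classes, at 1.185, 1.114, 0.882 and 0.664. With TMM the shares were 1.82%, 6.64%, 25.5% and 67.2%, and the median ratios were 1.04, 0.974, 0.755 and 0.547. These 2 alternatives were chosen after the values had been seen.

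**Figure D1:**
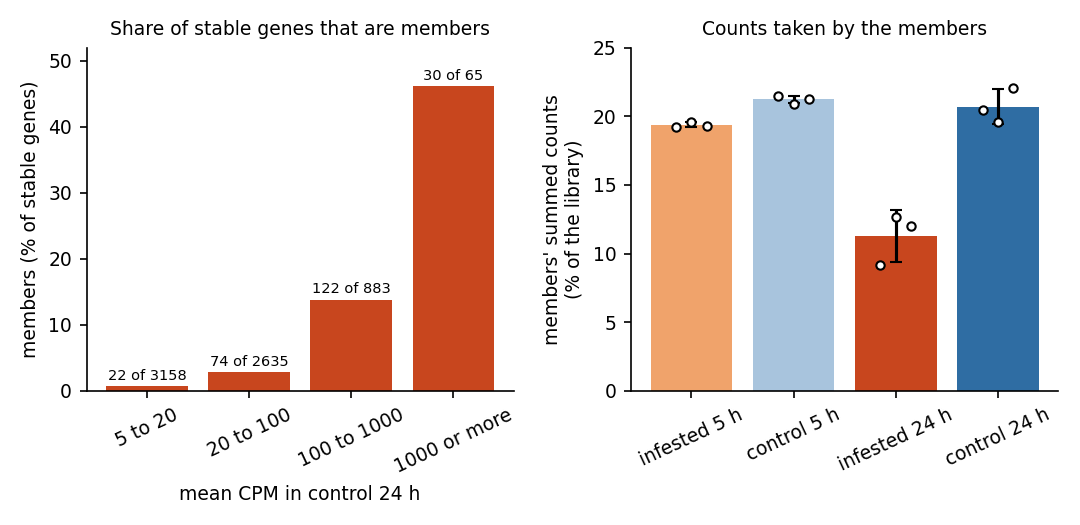
Left, the percentage of stable genes that are members, by mean CPM in control 24 h, with the numbers above each bar. Right, the percentage of each library's counts taken by the 248 members, with bars for the group mean, error bars for the SD and points for the 3 libraries. Members were 46.2% of the stable genes at 1000 CPM or more and 0.697% of those between 5 and 20 CPM. They took 9.14% to 12.6% of the counts in infested 24 h, against 19.6% to 22.1% in control 24 h, an order that follows from the rule.

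Together the members held a large part of the leaf transcriptome. They took 19.2%, 19.6% and 19.3% of the counts in infested 5 h, against 21.5%, 20.9% and 21.3% in control 5 h, and 9.14%, 12.65% and 12.03% in infested 24 h, against 20.5%, 19.6% and 22.1% in control 24 h. The 3 infested 24 h libraries thus stood below the 9 others, whose shares were close to each other. The rule set the ratios of these genes, so this order follows from their choice. A share of counts cannot tell fewer cells of a kind from less RNA per cell, since whole leaflets were measured. It also falls where other transcripts take more of the counts. The 6 most abundant members held 45.2% of the members' counts in control 24 h, and without them the remaining 242 took 5.01% to 6.84% of the counts in infested 24 h, against 10.6% to 12.2% in control 24 h. None of these 6 has an annotation in the sources used here. The most abundant had 12871, 17994 and 16545 CPM in infested 24 h, against 28414, 27128 and 30211 CPM in control 24 h, and 25353, 27749 and 27281 CPM in infested 5 h, against 27852, 28818 and 28847 CPM in control 5 h. Its 24 h ratio was 0.553, and its 5 h ratio was 0.940.

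A small shift had the same sign at 5 h. Although the rule allowed 5 h ratios on either side of 1, the members' 5 h ratio had a median of 0.892 and was below 1 in 232 of 248 (93.5%), against 52.7% of all stable genes. In 70 members (28.2%) every infested 5 h library was below every control 5 h library, against 9.05% of the stable genes and 16.3% of all genes tested. The 5 h ratio also varied with level. Among genes of 1000 CPM or more in control 24 h it was below 1 in 29 of 30 members, with a median of 0.915, and in 29 of 35 other stable genes, with a median of 0.908. Between 100 and 1000 CPM it was below 1 in 93.4% of the members, against 66.0% of other stable genes, between 20 and 100 CPM in 91.9%, against 50.8%, and between 5 and 20 CPM in 95.5%, against 47.6%. With TMM the number below 1 was again 232, the members' median ratio was 0.890, and the median of the stable genes was 0.987. None of the 248 passed edgeR's quasi-likelihood test at 5 h (18 had an unadjusted p below 0.05, and the lowest adjusted p was 0.0640), where 5.59% of all genes tested were called lower and 6.94% higher. DESeq2's Wald test called 1. The rule's band excluded larger 5 h changes, so this count follows from the choice of genes.

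**Figure D2:**
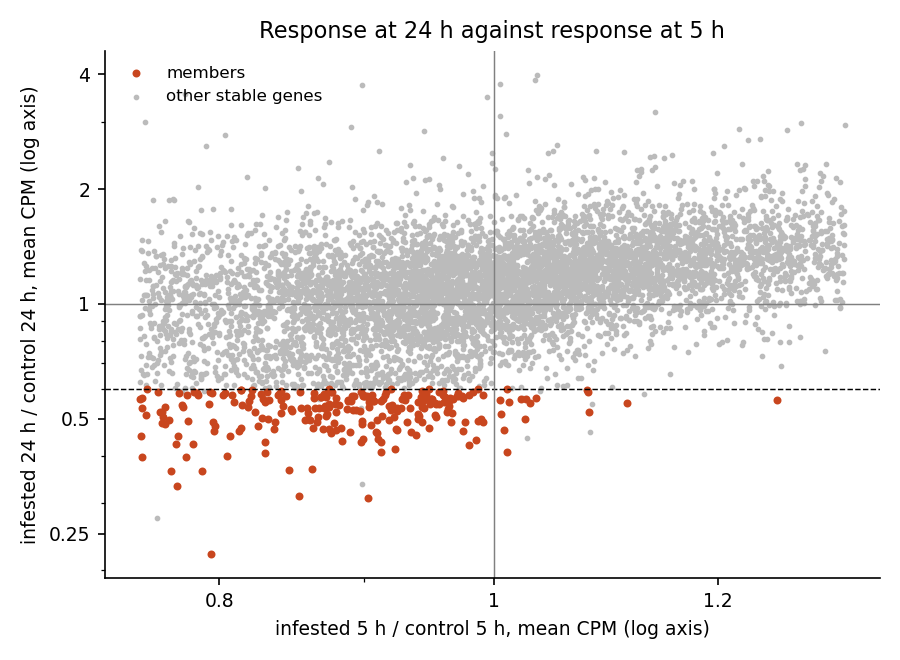
Ratio of infested 24 h to control 24 h against the ratio of infested 5 h to control 5 h for the 6741 stable genes, both from mean CPM on log axes, with members in red, other stable genes in grey and the limit of 0.6 as a dashed line. Of the 248 members, 232 lie left of a 5 h ratio of 1.

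The controls moved little, as the rule required. The ratio of control 24 h to control 5 h had a median of 1.09 in the members, as it had in the comparison genes (1.09), and 179 members were above 1. With TMM the members' median log2FC between the control harvests was 0.01, and 131 were positive. In edgeR's test 12 members were called lower and 3 higher in control 24 h than in control 5 h, where 14% of all genes tested were called lower and 13.7% higher, so that genes inside the band could still differ beyond their replicate spread. This number was 29 without infested 24 h replicate 1, 9, 8 and 5 without control 5 h replicates 1, 2 and 3, and 5 and 8 without control 24 h replicates 1 and 2. In 193 members (77.8%) every infested 24 h library was below all of the 9 other libraries, where 6.22% of the stable genes and 3.23% of all genes tested were, and the rule's clauses on overlap and on flat controls make this likely.

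The 3 infested 24 h libraries did not lie equally low. Replicate 1 was the lowest of its group in 238 of 248 members (96.0%), with a median ratio to the control 24 h mean of 0.431, while replicates 2 and 3 had medians of 0.613 and 0.548. In the comparison genes, replicate 1 was the lowest in 32.3%. With TMM it was the lowest in 241 members and in 45.7% of the comparison genes. Which replicate was highest depended on the scaling: replicate 2 in 182 members with library totals, but replicate 3 in 165 members with TMM. All 248 members were at or below 0.6 of the control mean in replicate 1, but 105 were in replicate 2 and 187 in replicate 3. The coefficient of variation in infested 24 h had a median of 18.9% in the members, against 13.8% in the comparison genes, while in control 24 h it was 8.81% in the members and 10.5% in the comparison genes. The summed level of the wounding list ran in the opposite order with library totals, highest in replicate 1 (32856 CPM), then replicate 3 (30189 CPM) and replicate 2 (10571 CPM). With TMM the members' medians were 0.371, 0.498 and 0.531 in replicates 1, 2 and 3. The wounding sums were not computed with TMM, so both orders were compared with library totals only. The part of replicate 1 in the members' 24 h values was not tested beyond the values given without it.

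**Figure D3:**
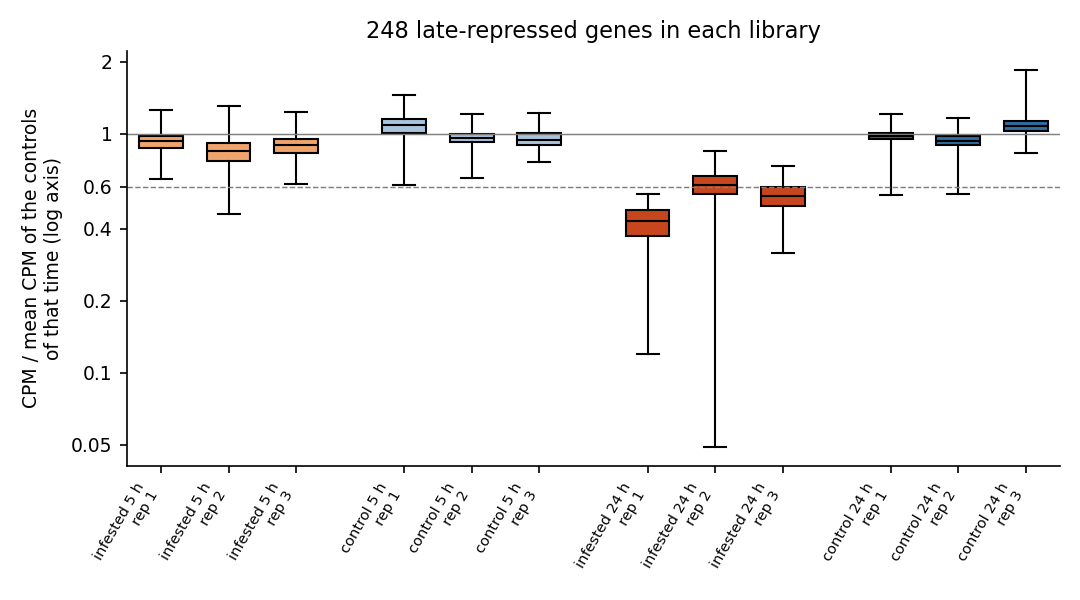
CPM of the 248 members in each library, divided by the mean CPM of the controls of that time, on a log axis. Boxes give the quartiles with the median, whiskers reach the lowest and the highest member, the solid line marks 1 and the dashed line marks 0.6. The median was 0.431 in infested 24 h replicate 1, 0.613 in replicate 2 and 0.548 in replicate 3, and between 0.848 and 0.934 in infested 5 h.

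At 24 h, edgeR's quasi-likelihood test called 246 of the 248 members lower, where 12.5% of all genes tested were called lower and where 11.4% had no overlap in that direction. The rule used this contrast, and nothing is read from the count. The members' log2FC at 24 h, scaled by TMM, had a median of -1.08 and ran from -2.33 to -0.91. With library totals alone the median was -0.89, against 0.21 for all genes tested. The 2 members that missed the threshold were at low levels, and are named for having missed it. One is *Solyc01g094020*, listed under organonitrogen compound metabolism, with 1.67, 4.97 and 4.30 CPM in infested 24 h, against 5.43, 5.31 and 7.84 CPM in control 24 h, and a log2FC of -0.94 ± 0.35 (SE, edgeR adjusted p = 0.0680). Its ratio of 0.589 moved past the limit, to 0.749, where infested 24 h replicate 1 was left out, and to 0.679 on leaving out control 24 h replicate 3. The other has no annotation here, and had 5.71, 0.517 and 5.46 CPM in infested 24 h, against 5.86, 6.20 and 19.6 CPM in control 24 h (edgeR adjusted p = 0.121). Its ratio of 0.370 was 0.530 where infested 24 h replicate 2 was left out, and 0.646, past the limit, on leaving out control 24 h replicate 3.

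An annotation was at hand for 54 of the 248 members, all from the gene ontology (GO) lists that the study drew from genes it found down-regulated in these same libraries at 24 h. Membership of such a list is therefore not independent evidence of a lower level. The counts of members per list below stand beside shares of 0.728% of all genes and 3.68% of stable genes. Since the lists held genes already called lower, a higher share in them was favoured by their choice. The other 194 members are identifiers without a name in the sources used here, among them the 2 lowest ratios of that kind. *Solyc06g066700* had 2.24, 3.74 and 6.43 CPM in infested 24 h, against 14.4, 16.0 and 25.7 CPM in control 24 h, a ratio of 0.221. At 5 h it had 29.9, 17.7 and 17.6 CPM in infested leaflets, against 18.7, 30.6 and 32.6 CPM in control leaflets, a ratio of 0.795. Its ratio of control 24 h to control 5 h was 0.685, the lowest of all members and near the edge of the band at 0.67. This control difference did not pass the test (log2FC -0.67 ± 0.38, SE, edgeR adjusted p = 0.214). *Solyc02g077330* had 5.98, 10.3 and 7.74 CPM in infested 24 h, against 18.8, 16.7 and 36.8 CPM in control 24 h, a ratio of 0.332. Its control spread was wide, since control 24 h replicate 3 exceeded the other controls by more than these exceeded any infested 24 h library.

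The light-harvesting genes, whose proteins bind chlorophyll in the antenna, were mostly kept out by their controls. Of the 26 listed first by the study, 3 were members, while 21 were outside the control band, all 21 of them below 0.67. For 19 of these the control band was the only clause they missed, and the median ratio of control 24 h to control 5 h over the 26 was 0.212. The 2 members of lowest ratio among all annotated ones belong to this list and are neighbours on chromosome 8.

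*Solyc08g067330* had 10.4, 22.8 and 23.2 CPM in infested 24 h, against 62.4, 55.1 and 64.8 CPM in control 24 h. At 5 h it had 54.8, 63.6 and 62.2 CPM in infested leaflets, against 65.8, 61.2 and 73.0 CPM in control leaflets. Its 24 h ratio was 0.310 and its log2FC at 24 h was -1.86 ± 0.26 (SE, n = 3 libraries per group, edgeR adjusted p = 0.000649). The infested 24 h libraries lay far below all others, and the 5 h groups overlapped. *Solyc08g067320* had 6.64, 16.0 and 13.9 CPM in infested 24 h, against 35.3, 38.6 and 42.6 CPM in control 24 h, a ratio of 0.313. As near neighbours of the same list, these 2 genes may share reads, and their values are not independent.

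The wider photosynthesis list, of which 26 genes were at hand, held 4 members. *Solyc02g079950* was the most abundant of them, with 2021, 2525 and 2480 CPM in infested 24 h, against 4132, 3953 and 4185 CPM in control 24 h, a ratio of 0.573. Its control level was not quite flat, at 0.798 of the 5 h control, a difference that passed edgeR's test (log2FC -0.45 ± 0.15, SE, adjusted p = 0.0391). *Solyc03g114930* was just inside the limit, with 211, 231 and 253 CPM in infested 24 h, against 381, 361 and 419 CPM in control 24 h, a ratio of 0.598. None of the 5 genes listed under electron transport in photosystem I was a member: their 24 h ratios ran from 0.650 to 0.745.

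Among the lists held in full, that of tetrapyrrole metabolism, which leads to chlorophyll and haem, had the most members. Of its 20 genes, 8 were members, with 24 h ratios of 0.428 to 0.595, and 6 missed only the 24 h limit. *Solyc10g007320*, listed under porphyrin synthesis, had 82.8, 174 and 143 CPM in infested 24 h, against 296, 274 and 362 CPM in control 24 h, and 296, 238 and 325 CPM in infested 5 h, against 353, 260 and 264 CPM in control 5 h. Its 24 h ratio of 0.428 was the lowest of the list, its 5 h ratio was 0.980, and its log2FC at 24 h was -1.41 ± 0.24 (SE, edgeR adjusted p = 0.00173). The 9 libraries outside infested 24 h overlapped freely.

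*Solyc04g015490*, listed under chlorophyll biosynthesis, had 121, 180 and 153 CPM in infested 24 h, against 309, 275 and 363 CPM in control 24 h, a ratio of 0.480. *Solyc07g066470*, listed under tetrapyrrole biosynthesis only, had 168, 238 and 208 CPM in infested 24 h, against 377, 345 and 463 CPM in control 24 h, a ratio of 0.518. Replicate 1 was the lowest infested 24 h library in each of these 3 genes. The most abundant member of the list, *Solyc10g077040*, also listed under chlorophyll biosynthesis, had 1091, 1268 and 1639 CPM in infested 24 h, against 2283, 1974 and 2458 CPM in control 24 h. Its level at 5 h was higher in both groups, with 2509, 2596 and 2467 CPM in infested leaflets and 3018, 3050 and 3149 CPM in control leaflets, and its control ratio of 0.728 was among the lower ones of the members (log2FC -0.58 ± 0.19, SE, edgeR adjusted p = 0.0359).

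The genes listed under tRNA aminoacylation, whose products charge tRNAs with amino acids, were close to the limit. Of 19 listed, 6 were members and 10 more missed only the 24 h limit, so that the median 24 h ratio of the whole list was 0.625, with a range of 0.470 to 0.791. *Solyc12g019110* had 33.5, 65.1 and 46.5 CPM in infested 24 h, against 97.8, 94.3 and 117 CPM in control 24 h, a ratio of 0.470. Its neighbour *Solyc12g019100* had 13.8 to 27.5 CPM in the 3 infested 24 h libraries, against 42.6, 28.2 and 54.3 CPM in control 24 h, a ratio of 0.490. In *Solyc12g019100* the groups nearly touched, at replicate 2 of each, and as neighbours with the same listing the 2 genes may share reads.

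*Solyc12g095850* of the same list had 31.5, 51.5 and 46.9 CPM in infested 24 h, against 82.4, 74.2 and 89.8 CPM in control 24 h, a ratio of 0.527. *Solyc04g074630* was just inside the limit, at 16.7, 24.6 and 21.4 CPM in infested 24 h, against 33.9, 36.5 and 34.8 CPM in control 24 h. Its 5 h libraries did not overlap either, at 30.1, 28.1 and 25.6 CPM in infested leaflets and 34.3, 33.1 and 35.6 CPM in control leaflets, although the 5 h log2FC of -0.30 ± 0.13 did not pass the test (SE, edgeR adjusted p = 0.183).

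Among the 26 genes at hand from the translation list, which covers protein synthesis as a whole, 6 were members. *Solyc01g056780* had 142, 212 and 176 CPM in infested 24 h, against 377, 344 and 431 CPM in control 24 h, and its log2FC at 24 h was -1.31 ± 0.15 (SE, edgeR adjusted p = 0.000279). *Solyc02g086740* had 95.6, 128 and 122 CPM in infested 24 h, against 221, 221 and 293 CPM in control 24 h, a ratio of 0.470. Its neighbour *Solyc02g086730* is a member of the same list, with a ratio of 0.558.

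**Figure D4:**
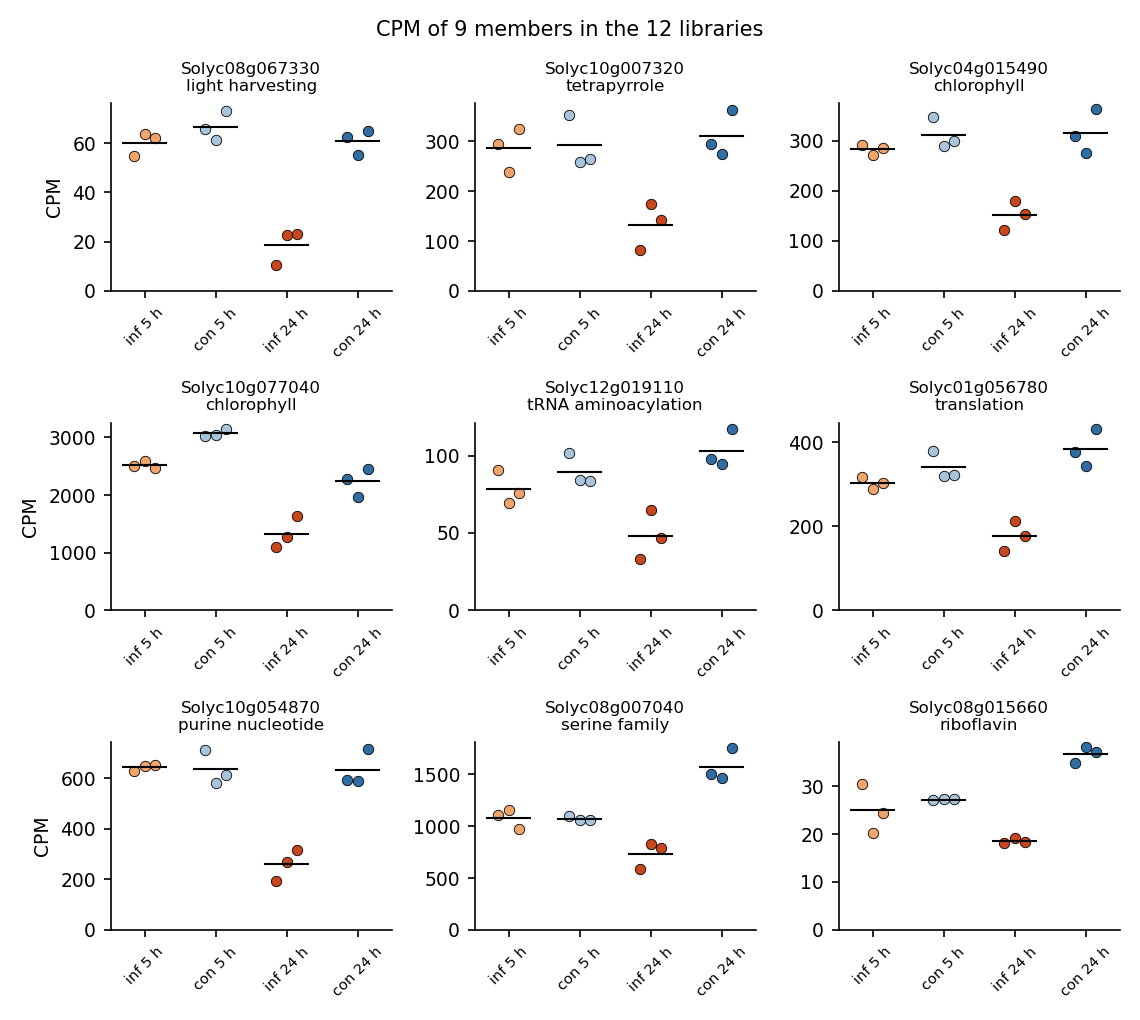
CPM of 9 members in each of the 12 libraries, one panel per gene on a linear axis from 0, with points for libraries and lines for group means (inf, infested; con, control). In each panel the 3 infested 24 h points lie below the control 24 h points, and infested 24 h replicate 1, drawn leftmost of its group, is the lowest of the 3 in all 9.

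Genes listed under nucleotide metabolism made up the next group. Nucleotides are the building blocks of RNA and DNA, and ATP is one of them. Of 18 genes listed under purine nucleotide biosynthesis, 5 were members, and of 11 listed under biosynthesis of pyrimidine compounds, 4 were, with 2 genes on both lists. *Solyc10g054870*, listed under purine nucleotide metabolism but not under its biosynthesis, had the third lowest ratio of the annotated members, 0.410. It had 194, 267 and 317 CPM in infested 24 h, against 593, 590 and 716 CPM in control 24 h. At 5 h it had 630, 648 and 652 CPM in infested leaflets, against 713, 582 and 613 CPM in control leaflets, a ratio of 1.01, and its 5 h groups overlapped.

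Among the 5 members listed under purine nucleotide biosynthesis, *Solyc06g048430* was the scarcest, with 1.80, 4.66 and 2.95 CPM in infested 24 h, against 5.678, 7.125 and 7.496 CPM in control 24 h. *Solyc06g066000* was the most abundant of the 5, with 496, 660 and 589 CPM in infested 24 h, against 1021, 984 and 1024 CPM in control 24 h, a ratio of 0.576. *Solyc02g085520* had 39.9, 60.9 and 48.2 CPM in infested 24 h, against 89.1, 83.8 and 106 CPM in control 24 h, a ratio of 0.534. Over these 3 genes, which differ widely in level, the ratio was 0.464 to 0.576.

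The 2 genes on both nucleotide lists were *Solyc06g071960*, at 82.0, 120 and 111 CPM in infested 24 h, against 190, 160 and 253 CPM in control 24 h, and *Solyc03g110960*, at 21.9, 30.1 and 24.9 CPM in infested 24 h, against 42.0, 41.4 and 50.2 CPM in control 24 h. *Solyc09g011300*, on the pyrimidine list alone, had 65.4, 96.7 and 74.0 CPM in infested 24 h, against 137, 146 and 151 CPM in control 24 h, a ratio of 0.544. *Solyc07g066610*, listed under metabolism of nucleotides and of monocarboxylic acids but not under nucleotide biosynthesis, was the most abundant annotated member. It had 1826, 2849 and 2499 CPM in infested 24 h, against 4412, 4266 and 4634 CPM in control 24 h, with 4200, 4068 and 4150 CPM in infested 5 h, against 4593, 4487 and 4442 CPM in control 5 h. Both times were without overlap in this gene, at ratios of 0.539 and 0.918.

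The 2 members listed under serine family amino acid metabolism, which in leaves includes the glycine and serine conversions of photorespiration, were near the upper edge of the control band, as were others: 12 of the 248 members had a control ratio above 1.4. *Solyc08g007040* had 586, 827 and 786 CPM in infested 24 h, against 1504, 1462 and 1750 CPM in control 24 h, a ratio of 0.466. At 5 h it had 1112, 1154 and 977 CPM in infested leaflets, against 1094, 1060 and 1061 CPM in control leaflets. Its control ratio was 1.47, which did not pass the test (log2FC 0.43 ± 0.16, SE, edgeR adjusted p = 0.0614).

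*Solyc06g061070* had the same form, with 784, 944 and 1055 CPM in infested 24 h, against 1551, 1540 and 1670 CPM in control 24 h, a ratio of 0.585, and a control ratio of 1.41. Its infested 24 h libraries overlapped the 5 h ones, which were 1138, 1148 and 999 CPM in infested leaflets and 1108, 1128 and 1147 CPM in control leaflets. Of the 23 genes listed under amino acid biosynthesis, 1 was a member, *Solyc07g064280*, with 13.01, 29.61 and 17.20 CPM in infested 24 h, against 31.1, 41.1 and 39.7 CPM in control 24 h, and 13 others missed only the 24 h limit.

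Of 17 genes listed under fatty acid biosynthesis, 2 were members, and of 6 listed under riboflavin biosynthesis, 1 was. *Solyc05g056290* had 49.2, 57.7 and 43.5 CPM in infested 24 h, against 87.8, 73.5 and 102 CPM in control 24 h, a ratio of 0.571. *Solyc11g072990*, at 5.27, 5.81 and 6.36 CPM in infested 24 h, against 8.45, 7.81 and 13.8 CPM in control 24 h, had a log2FC of -0.97 ± 0.25 (SE, edgeR adjusted p = 0.0158), which lost the call without infested 24 h replicate 1 (log2FC -0.87) and without control 24 h replicate 3 (log2FC -0.64), at adjusted p between 0.00865 and 0.0680 over its 15 alternatives.

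*Solyc08g015660*, the only member listed under riboflavin and vitamin biosynthesis, was even between replicates, with the lowest coefficient of variation in infested 24 h of all 248 members, 3.11%. It had 18.1, 19.2 and 18.3 CPM in infested 24 h, against 34.8, 38.1 and 37.2 CPM in control 24 h, and a log2FC of -1.17 ± 0.12 (SE, edgeR adjusted p = 0.000205). No gene listed under carotenoid biosynthesis (5), terpenoid biosynthesis (9) or biosynthesis of sulfur compounds (14) was a member. Their 24 h ratios were still below 1, at 0.681 to 0.763, 0.334 to 0.763 and 0.592 to 0.849 in that order. None of the 12 wounding genes was a member, which their 24 h ratios of at least 9.30 had fixed.

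**Figure D5:**
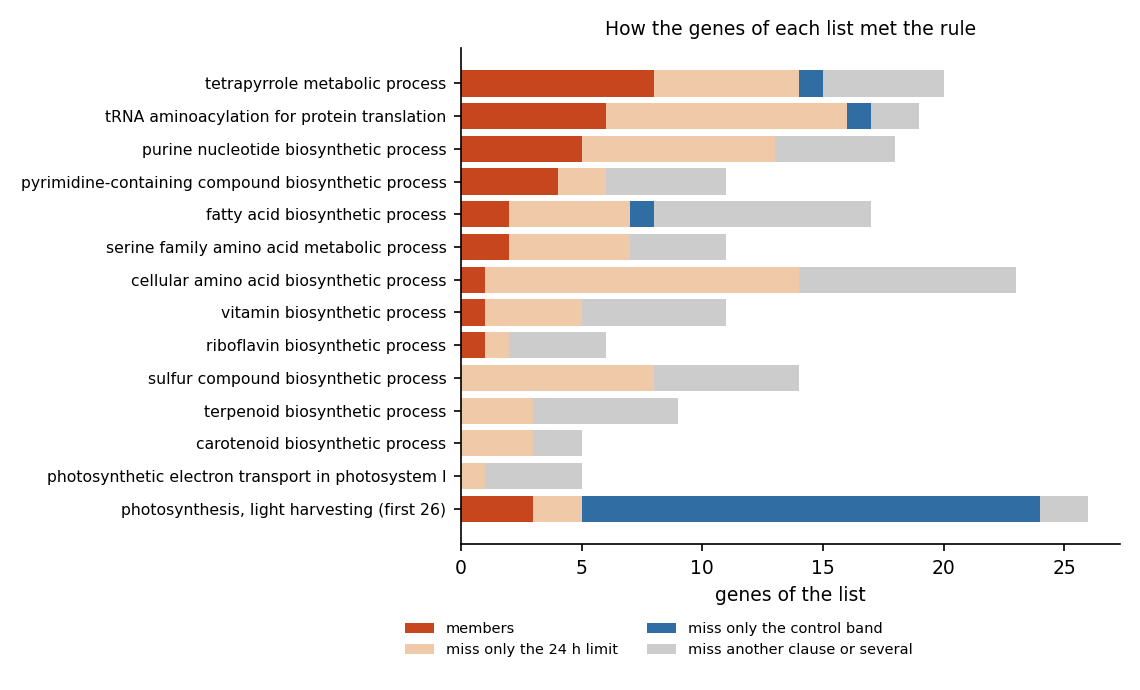
Number of genes in each of 14 of the study's lists that are members (red), that missed only the 24 h limit (pale), that missed only the control band (blue) or that missed another clause or several (grey). Light-harvesting genes missed mostly the control band (19 of 26), while genes of tRNA aminoacylation missed mostly the 24 h limit (10 of 19).

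The limit of 0.6 fell within an unbroken run of values. Nearest below it among annotated genes were *Solyc03g114930* (24 h ratio 0.598), *Solyc04g074630* (0.596) and *Solyc10g077040* (0.595). Nearest above it, with every other clause met, were *Solyc02g080990* (0.6001), listed under tRNA aminoacylation, *Solyc09g014760* (0.606), listed under chlorophyll biosynthesis, and *Solyc03g019940* (0.606), listed under tRNA aminoacylation. The log2FC at 24 h were -0.92, -0.93 and -0.92 for the 3 genes inside and -0.92, -0.91 and -0.91 for the 3 genes outside, so that the 2 sides had nearly the same values.

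The difference between the responses, log2FC at 24 h minus log2FC at 5 h, was negative in all 248 members, as the rule makes likely. Its median was -0.94. EdgeR's test of this difference called 112 members, where 1.47% of all genes tested were called lower, and 237 had an unadjusted p below 0.05. The median adjusted p of the members was 0.0522, so that many lay at the threshold, and the count was not stable: edgeR's likelihood ratio test called 173, DESeq2's Wald test 192, and the quasi-likelihood test 55 where libraries were scaled by their totals alone. Without a single library it was 16, 3 and 1 for infested 5 h replicates 1, 2 and 3. It was 32, 1 and 1 for control 5 h replicates 1, 2 and 3, and 2 each for control 24 h replicates 1 and 3. Elsewhere it also rose, and over all fits that left out 1 library it ran from 1 to 166. Which members differ between the times beyond their spread can therefore not be listed from these libraries.

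Genes repressed at both times formed a smaller and scarcer set. With the same floor and control band, 41 genes had a ratio of at most 0.6 and no overlap at both 5 h and 24 h. The control 24 h mean had a median of 190 CPM in the members, against 25.1 CPM in these 41 genes, and the 24 h ratio had a median of 0.539 in the members, against 0.520 in the 41. The infested 5 h libraries varied less in the members, with a median coefficient of variation of 7.41%, against 20.9% in the 41. In infested 24 h the median coefficient of variation was 18.9% in the members and 18.9% in the 41. The 41 had lower counts, and whether this bears on their spread was not tested.

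By their identifiers, the members were spread over all 12 chromosomes, from 10 on chromosome 9 to 29 on chromosome 3. They made up 1.21% of the genes past the floor on chromosome 9 and 2.85% on chromosome 10. There were 9 pairs of members next to each other in the order of identifiers, with 18 genes, including the light-harvesting pair and the tRNA aminoacylation pair described above.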

How the data were processed

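Whole-leaflet RNA was sequenced in 12 libraries. The deposited values are raw counts per gene, which the authors made with Trimmomatic, BWA-MEM and FeatureCounts, per the study's methods, the submitters' processing notes and the file headers; the methods speak of FPKM, but every deposited value is a whole number. The methods name the annotation ITAG2.4, but whether the deposited identifiers are of that version could not be settled, which bears on the number of members without annotation and on which identifiers are neighbours. How strand and multiply mapped reads were treated is not stated in the sources used here. Per the file headers, the 5 h and the 24 h libraries were mapped with different shared inputs.

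CPM used library totals. Genes above 1 CPM in at least 3 libraries (18200) were tested in R 4.3.3 with edgeR 4.0.16 (TMM, quasi-likelihood F test, 4 group means over all 12 libraries, Benjamini-Hochberg adjustment over all genes tested, threshold 0.05). SE is the size of log2FC divided by the square root of F. Alternatives were DESeq2 1.42.0, edgeR's likelihood ratio test, other scalings and filters, a replicate block, only the libraries compared, other limits of the rule, and each library left out. The fits were tested on simulated data.

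The members and lists were chosen with earlier results of these data known. Lists come from the study's GO tables; those for photosynthesis, light harvesting, light reaction and translation were held only in their first 26 genes. The named genes are, among annotated members, the 10 of lowest 24 h ratio and the 6 of highest control 24 h CPM, up to 3 members of lowest ratio per complete list, the 2 members of lowest ratio without annotation, and the 3 annotated genes on each side of the limit. No member is named by identifier in the paper's text. None of the identifiers matched the RefSeq gene table, so no coordinates or sequences are given. Counts of any 2 replicates differed beyond counting noise. P-values measure the spread between these libraries.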

Additional observations from a re-analysis of the deposited data

Results flagged for a closer look

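The response at 24 h was lower than at 5 h in edgeR's test of the difference for 112 of the 248 members, where 1.47% of all genes tested were called lower. The rule selected for this difference, so it is a description, and leaving out 1 library gave 1 to 166 members. Among the named members the log2FC at 24 h minus that at 5 h passed the test for both light-harvesting genes, *Solyc08g067330* (-1.72) and *Solyc08g067320* (-1.62). Of those listed under metabolism of nucleotides or pyrimidine compounds, it passed for *Solyc10g054870* (-1.48), *Solyc07g066610* (-0.95), *Solyc09g011300* (-0.95) and *Solyc06g066000* (-0.88). Of those listed under translation, it passed for *Solyc02g086740* (-1.16) and *Solyc01g056780* (-1.14). It also passed for *Solyc08g007040* of serine metabolism (-1.29), *Solyc04g015490* of chlorophyll biosynthesis (-1.10), *Solyc08g015660* of riboflavin biosynthesis (-1.04) and *Solyc03g114930* of photosynthesis (-0.84). The call of each of these 12 genes was lost in 5 to 10 of the 12 fits that left out 1 library, while the sign was kept in all 12, so they are not a list of genes shown to differ between the times. The file headers name different shared inputs for the 5 h and the 24 h libraries, and these inputs cannot be told apart from time.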

How the results depend on the processing

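The number of members, 248, was 512 with TMM scaling, 514 with DESeq2 size factors, 74 and 516 with a 24 h limit of 0.5 and 0.7, and 111 with a 5 h band of 0.9 to about its inverse; leaving out 1 library gave 144 to 413. The 246 members called lower at 24 h were 232 with only the libraries compared and 243 to 246 leaving out 1 library. The members' median log2FC was -1.18 to -0.92 at 24 h and -0.20 to -0.11 at 5 h leaving out 1 library. Members called at 5 h (0) were 1 with library totals only, 1 with DESeq2's Wald test, 12 with only the libraries compared, and 0 to 3 leaving out 1 library. Members called between control harvests (15) were 24 with totals only, 32 with only the libraries compared, and 5 to 29 leaving out 1 library. The 112 members with a lower response at 24 h than at 5 h were 55 with totals only, 173 with the likelihood ratio test, 192 with DESeq2's Wald test, and 1 to 166 leaving out 1 library. Genes called lower at 24 h among all tested (2279) were 1303 with totals only, 1127 with only the libraries compared, and 1398 to 2207 leaving out 1 library. The cause of these shifts was not tested. Fits with only the libraries compared, and fits leaving out 1 library, also had fewer libraries. The difference between times could not be fitted with only the libraries compared. Of 495 values of named genes, from 15 alternatives for each of 33 genes, 493 kept their call and none changed sign. These alternatives left out the fit with only the libraries compared, other filters and other tests. The rule chose most of these genes by their 24 h ratio, so both results describe them.

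Replicate numbers are shared by the labels, but nothing says that libraries of different groups with the same number share a plant or a batch, and the deviations of same-numbered libraries correlated between -0.27 and 0.34, against -0.35 to 0.33 for other pairs. With the replicate block, 246 members were called lower at 24 h, 0 at 5 h, 11 between control harvests and 76 in the difference between times, with medians of -1.09 and -0.16 at 24 h and 5 h. The floor of 5 CPM corresponded to 98.3 to 141 counts in a library.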
